A study of Mus musculus with 5 samples.

Results

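Mitochondrial beta-oxidation shortens fatty acids inside the mitochondrial matrix, and 10 genes of its enzymes were followed here in mouse tibialis anterior (TA) muscle, ordered by the chain length of the substrate and by the step of the cycle. The genes were taken by name: Acadvl, Acadl, Acadm, Acads, Hadha, Hadhb, Echs1, Hadh, Acaa2 and Eci1. All 10 were among the 17015 genes of the table and among the 12148 genes that were expressed highly enough to be tested. The table holds RNA-seq values for 5 libraries from 8-week-old male mice, 3 from WT control mice and 2 from mice labelled skmNrip1-/-. In the skmNrip1-/- line, floxed Nrip1 alleles from C57BL/6J mice are deleted by a Cre recombinase brought in from C57BL/6JN mice. Control mice in the study are littermates without Cre, and its legend describes the TA muscle of both groups as sedentary. The Cre is driven from the myogenin promoter to target skeletal muscle cells, so the other cells of the muscle keep the gene. The study describes the disruption of Nrip1 as prenatal, and not as a loss in adult fibers. Nrip1 encodes RIP140, a coregulator of nuclear receptors. The comparison asks how the mRNAs of fatty acid oxidation enzymes differ in fast-twitch muscle when the fibers lack RIP140. The labels give separate libraries but do not say that each came from its own mouse, and the study's legend for this experiment gives 3 mice per group where 2 libraries labelled skmNrip1-/- were analysed here.

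The targeted gene goes against its label. Nrip1 was at 4.64, 7.69 and 6.55 FPKM in the WT control libraries, whereas the libraries labelled skmNrip1-/- had 25.3 and 22.5 FPKM, a log2 fold change of 1.94 (SE 0.21, adjusted p = 0.0261 from limma). FPKM counts fragments per kilobase of a gene's transcript and is scaled to the library, so levels of different genes can be compared per length. The Cre line removes the exon that carries the reading frame, and the table has 1 value per gene, so the deleted exon cannot be read on its own. Group names here are those of the labels, and each direction is stated for the groups as labelled. The fast-fiber genes that define TA were abundant in every library, with Myh4, the myosin heavy chain of the fastest fibers, between 6416 and 8478 FPKM.

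Each turn of the beta-oxidation spiral takes 4 reactions. An acyl-CoA dehydrogenase introduces a double bond, a hydratase adds water to it, a hydroxyacyl-CoA dehydrogenase oxidizes the product, and a thiolase releases acetyl-CoA and a shortened chain. Different enzymes cover different chain lengths. Long chains are handled at the inner membrane by very long-chain acyl-CoA dehydrogenase and by the mitochondrial trifunctional protein, which joins the last 3 reactions in a complex of alpha and beta subunits. Once shortened, the chains pass to soluble matrix enzymes for medium and short chains. In muscle this pathway supplies ATP during prolonged work, and it is known to be under the control of the PPAR and ERR nuclear receptors.

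The log2 fold changes of the members ran from 0.22 to 0.95. Hadha and Hadhb, the subunits of the trifunctional protein, had the largest differences, at 1.85 and 1.93 times their WT control mean FPKM, and the isomerase Eci1 had the smallest at 1.17 times. Among the 10, only Hadhb passed the test, which was limma on log2(FPKM + 0.1) with Benjamini-Hochberg adjustment over the 12148 genes, where a call needed an adjusted p no larger than 0.05 together with a 1.2-fold change or more. By that rule 45 of the 12148 genes, or 0.370%, were called higher. Before adjustment, 9 of the 10 members had a p of 0.05 or less and a higher level, which 6.57% of the tested genes did. Both libraries labelled skmNrip1-/- lay above every WT control library for 10 of 10 members, a position that 15.8% of the tested genes took. This position depends on the scaling between libraries, which is taken up below. The median log2 fold change was 0.63 over the members and -0.00054 over the 12148 genes. Genes of a shared pathway are not independent of each other, and these counts are a description of the list.

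**Figure D1:**
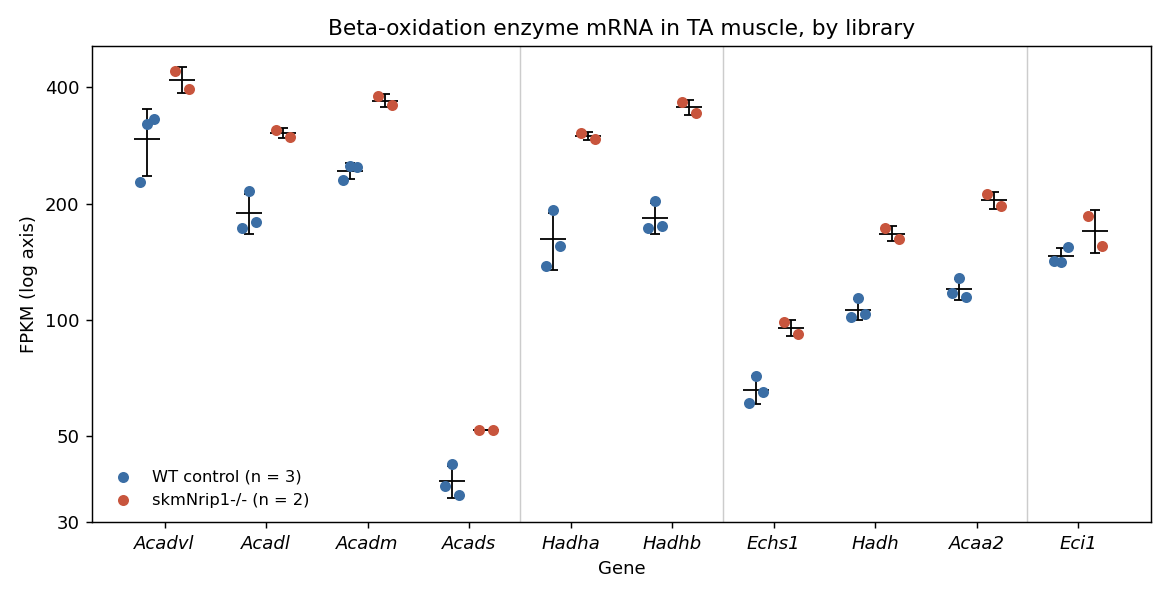
FPKM (log axis) of each member in the 3 WT control libraries and the 2 libraries labelled skmNrip1-/-; points are libraries, horizontal lines are group means and bars are SD. Grey lines separate the acyl-CoA dehydrogenases, the trifunctional protein, the soluble enzymes and the isomerase. For every gene both points labelled skmNrip1-/- lie above the WT control points, by the least for Eci1 (155 against 155 FPKM at the nearest points).

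The trifunctional protein stood at the top of the list. Its alpha subunit, encoded by Hadha (ENSMUSG00000025745, GRCm38 chromosome 5, 30118304 to 30155162, minus strand), carries the long-chain hydratase and hydroxyacyl-CoA dehydrogenase activities. Hadha was at 138, 192 and 156 FPKM in WT control TA, and the libraries labelled skmNrip1-/- had 305 and 294 FPKM. The groups did not overlap, and the lowest library labelled skmNrip1-/- was 1.53 times the highest WT control library. With an adjusted p of 0.0959 from limma, the log2 fold change of 0.90 (SE 0.15) missed the threshold. Without WT control replicate 2 it was called, at 1.03 (adjusted p = 0.0387). It was not called without WT control replicate 1 (adjusted p = 0.128) or WT control replicate 3 (0.351).

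The beta subunit carries the long-chain thiolase and is encoded by Hadhb (ENSMUSG00000059447, chromosome 5, 30155248 to 30184593, plus strand). Its FPKM was 173, 203 and 175 in WT control TA and 366 and 344 in the libraries labelled skmNrip1-/-. Again the groups were well apart, with the lowest library labelled skmNrip1-/- at 1.69 times the highest WT control library. Hadhb rose by 0.95 on the log2 scale (SE 0.12, adjusted p = 0.0378 from limma), from 184 ± 16.8 FPKM (SD, n = 3) to 355 ± 15.5 FPKM (SD, n = 2). The call held without WT control replicate 2 (adjusted p = 0.0354) and was lost without WT control replicate 1 (0.0726), WT control replicate 3 (0.181), skmNrip1-/- replicate 1 (0.306) or skmNrip1-/- replicate 2 (0.291), where the log2 fold change stayed between 0.908 and 0.998. It was also lost after rescaling to a common sum (TPM, log2 fold change 0.65, adjusted p = 0.0661) and with limma's variance estimated without an intensity trend (adjusted p = 0.0943).

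Hadha and Hadhb are neighbours that are read in opposite directions. In GENCODE their first bases are 86 bases apart. Within 1000 bases upstream of its own start, no other member has a coding neighbour that starts in the opposite direction. Neighbours that start inside a member were not counted. The stretch between the starts of Hadha and Hadhb, chr5:30155163-30155247 on GRCm38, is shown because the members with the largest differences share it. It is given from RefSeq's promoter table on the plus strand, 5′ to 3′, with CpG pairs in capitals:
Hadha-Hadhb interval: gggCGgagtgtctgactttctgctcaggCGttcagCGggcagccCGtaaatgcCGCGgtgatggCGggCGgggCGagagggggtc
These 85 bases hold 9 CpG pairs and are 69.4% G or C. The promoter table (250 bases before to 50 after each RefSeq start) matched 9 of the 10 members. G or C content in the 9 windows ran from 50.7% for Acadvl to 70.3% for Acadl, beside a median of 52.7% over all windows. An element of the estrogen-related receptors, TNAAGGTCA, was found on either strand in 0 of the 9 windows and in 1.28% of all 32851 windows. A direct repeat of AGGTCA spaced by 1 base with at most 1 mismatch, an element of PPAR with RXR that shares its AGGTCA letters with the first, was in 0 of the 9 and in 0.554% of all. These shares describe letters in short windows only.

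The subunits were compared with each other inside each library. In each library the FPKM of Hadhb was divided by that of Hadha, which removes any scaling between libraries. The ratio was 1.253, 1.056 and 1.122 in the WT control libraries and 1.199 and 1.168 in those labelled skmNrip1-/-. These values overlapped, with a difference of 0.05 in the mean log2 ratio (exact 2-sided permutation test over libraries, p = 0.8). With 10 ways to divide the libraries, no such exact test can go below p = 0.2. Of the 4 ratios tested, each had a Benjamini-Hochberg adjusted permutation p of 0.8.

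The first step of the spiral is covered by a dehydrogenase for each range of chain length. Acadvl (ENSMUSG00000018574, chromosome 11, 70010183 to 70015411), the membrane-bound enzyme for very long chains, was at 228, 322 and 332 FPKM in WT control TA and at 441 and 396 FPKM in the libraries labelled skmNrip1-/-. WT control replicate 1 was low, and the spread among the WT control libraries (SD 57.5 FPKM) was the widest of any member. The log2 fold change was 0.53 (SE 0.19, adjusted p = 0.343 from limma).

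Acadl (ENSMUSG00000026003, chromosome 1, 66830839 to 66863277) encodes the soluble long-chain dehydrogenase. It was at 173.5, 216 and 179.5 FPKM in WT control TA, with 311 and 298 FPKM in the libraries labelled skmNrip1-/-. The groups were apart, and the log2 fold change of 0.69 (SE 0.13) was not called (adjusted p = 0.116). Acadl relative to Acadvl was 0.762, 0.670 and 0.541 in WT control and 0.705 and 0.754 in skmNrip1-/- libraries, which overlapped (difference 0.16 in log2 ratio, exact permutation p = 0.6). Both ratios from libraries labelled skmNrip1-/- fell inside the WT control range.

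Acadm (ENSMUSG00000062908, chromosome 3, 153922357 to 153944632) encodes the medium-chain dehydrogenase, which is deficient in a common inborn error of fatty acid oxidation. Its FPKM was 230.2, 250.8 and 249.6 in WT control TA and 379.6 and 359 in the libraries labelled skmNrip1-/-. The WT control libraries were close together (SD 11.5 FPKM), and the difference was 0.60 on the log2 scale (SE 0.11, adjusted p = 0.103). Acads (ENSMUSG00000029545, chromosome 5, 115110299 to 115119346), for short chains, had the lowest level of the 10, at 37.3, 42.4 and 35.2 FPKM in WT control and 51.9 and 52.0 FPKM in skmNrip1-/- libraries. Its log2 fold change was 0.44 (SE 0.11, adjusted p = 0.232), and the groups did not overlap. Per length, Acadm was 5.90 to 7.08 times Acads in the WT control libraries and 7.29 and 6.89 times in those labelled skmNrip1-/-, with overlap (exact permutation p = 0.4).

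For the remaining reactions on medium and short chains there are separate soluble enzymes. Echs1 (ENSMUSG00000025465, chromosome 7, 140105710 to 140116476), the short-chain enoyl-CoA hydratase, was at 61.1, 71.9 and 65.2 FPKM in WT control and at 98.6 and 92.2 FPKM in skmNrip1-/- libraries, a log2 fold change of 0.53 (SE 0.11, adjusted p = 0.153). Hadh (ENSMUSG00000027984, chromosome 3, 131233419 to 131272101), the hydroxyacyl-CoA dehydrogenase, was at 102, 114 and 103 FPKM against 173 and 162 FPKM, a log2 fold change of 0.65 (SE 0.11, adjusted p = 0.0899). Both genes had their lowest library labelled skmNrip1-/- above the highest WT control library, by 1.28 times for Echs1 and 1.42 times for Hadh.

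Acaa2 (ENSMUSG00000036880, chromosome 18, 74779197 to 74806208) encodes the soluble 3-ketoacyl-CoA thiolase that closes the turn. It was at 118, 129 and 115 FPKM in WT control TA and at 211 and 197 FPKM in the libraries labelled skmNrip1-/-. Acaa2 lay just outside the threshold (log2 fold change 0.76, SE 0.11, adjusted p = 0.0505). It was called with a pseudocount of 1, or with a minimum mean of 1 FPKM, at an adjusted p of 0.0452 in each case. The adjusted p from limma was larger under TPM (0.0861) and with the variance estimated without an intensity trend (0.126). It was also larger without WT control replicate 1 (0.0862) or WT control replicate 3 (0.240). Of the members Acaa2 was the nearest to Hadha and Hadhb in its difference, so the largest values were those of both thiolase genes and of the trifunctional alpha subunit.

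Eci1 (ENSMUSG00000024132, chromosome 17, 24426641 to 24439348) encodes an isomerase that moves the double bonds of unsaturated chains into the position the hydratase needs. Its FPKM was 142, 141 and 155 in WT control and 186 and 155 in skmNrip1-/- libraries. The groups nearly touched, with the lowest library labelled skmNrip1-/- at 1.002 times the highest WT control library. The log2 fold change of 0.22 (SE 0.12, adjusted p = 0.553) turned to -0.08 after rescaling to TPM.

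**Figure D2:**
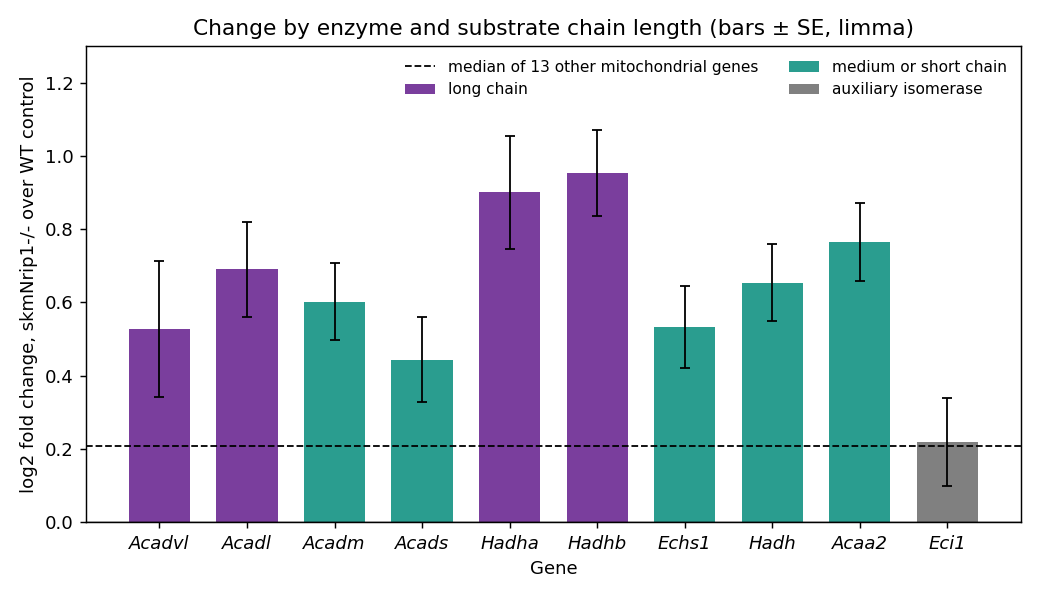
log2 fold change of each member, libraries labelled skmNrip1-/- over WT control; bars are the limma estimate, error bars its SE, colours the chain length class, and the dashed line the median of 13 mitochondrial genes outside fatty acid oxidation (0.21). Hadha and Hadhb are the tallest bars at 0.90 and 0.95 and Eci1 the shortest at 0.22.

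By chain length, the 4 long-chain members had a median log2 fold change of 0.80 and the 5 medium- and short-chain members 0.60. The classes shared most of their range, from 0.53 for Acadvl to 0.95 for Hadhb among long chains and from 0.44 for Acads to 0.76 for Acaa2 among the others. Within each library, the median of the long-chain members minus that of the others, both on the log2 scale and centred on the WT control mean, was -0.11, 0.07 and -0.02 in WT control and 0.18 and 0.21 in skmNrip1-/- libraries. The long-chain difference was thus above the WT control values in both libraries labelled skmNrip1-/-, and leaving out WT control replicate 2 moved the class difference from 0.19 to 0.28. Acadvl sat low among the long-chain members, and the class value was carried by the trifunctional protein. At the hydratase step, where Hadha serves long and Echs1 short chains, Hadha was 2.26, 2.67 and 2.38 times Echs1 in WT control and 3.09 and 3.19 times in skmNrip1-/- libraries. That log2 ratio differed by 0.37 with no overlap, at the smallest p the libraries allow (exact permutation p = 0.2), so the test could not have passed 0.05.

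The order of levels shifted with these differences. In WT control TA the order by mean FPKM was Acadvl, Acadm, Acadl, Hadhb, Hadha, Eci1, Acaa2, Hadh, Echs1 and Acads. The neighbours Acadvl and Acadm, Acadl and Hadhb, Hadhb and Hadha, and Hadha and Eci1 overlapped between libraries, and the other neighbours did not. In the libraries labelled skmNrip1-/- Hadhb stood above Acadl and Acaa2 above Eci1, both without overlap. The summed FPKM of the 10 genes was 1403, 1681 and 1565 in WT control and 2523 and 2350 in skmNrip1-/- libraries. As a share of that sum, Hadhb went from 11.9% ± 0.62 (SD, n = 3) to 14.6% ± 0.09 (SD, n = 2), and Eci1 from 9.47% ± 0.95 to 6.98% ± 0.54. The share of Hadh was 6.88% ± 0.33 and 6.87% ± 0.03.

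To set the members beside other nuclear-encoded mitochondrial mRNAs, 13 nuclear genes of the organelle outside fatty acid oxidation were used as a reference. Most of them encode import, porin or chaperone proteins, and transcripts of the mitochondrial genome were not among them. In limma 0 of the 13 were called and 5 had an unadjusted p of 0.05 or less, their median log2 fold change was 0.21, and they ran from -0.04 for Tomm20, an import receptor of the outer membrane, to 0.40 for Hspd1, a matrix chaperone. Of the members, 9 lay above the highest of these, and Eci1 did not. The ATP synthase gene Atp5a1, which is not in the reference, was also above it, at 0.52. The reference therefore does not stand for all mitochondrial mRNA. Within each library the FPKM of a member was also divided by that of Cs, citrate synthase, the enzyme often used to gauge mitochondrial content. Cs itself was at 283, 313 and 292 FPKM in WT control and 368 and 349.7 FPKM in skmNrip1-/- libraries (log2 fold change 0.28, adjusted p = 0.379). Relative to Cs, 8 of the 10 members were higher in both libraries labelled skmNrip1-/- than in any WT control library, a position that 3.58% of the 12147 tested genes other than Cs took. Hadhb was at 0.612, 0.649 and 0.599 times Cs in WT control and 0.994 and 0.983 times in skmNrip1-/- libraries. Acadvl (0.804, 1.03 and 1.14 against 1.198 and 1.131) and Eci1 (0.503, 0.451 and 0.531 against 0.505 and 0.444) overlapped.

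**Figure D3:**
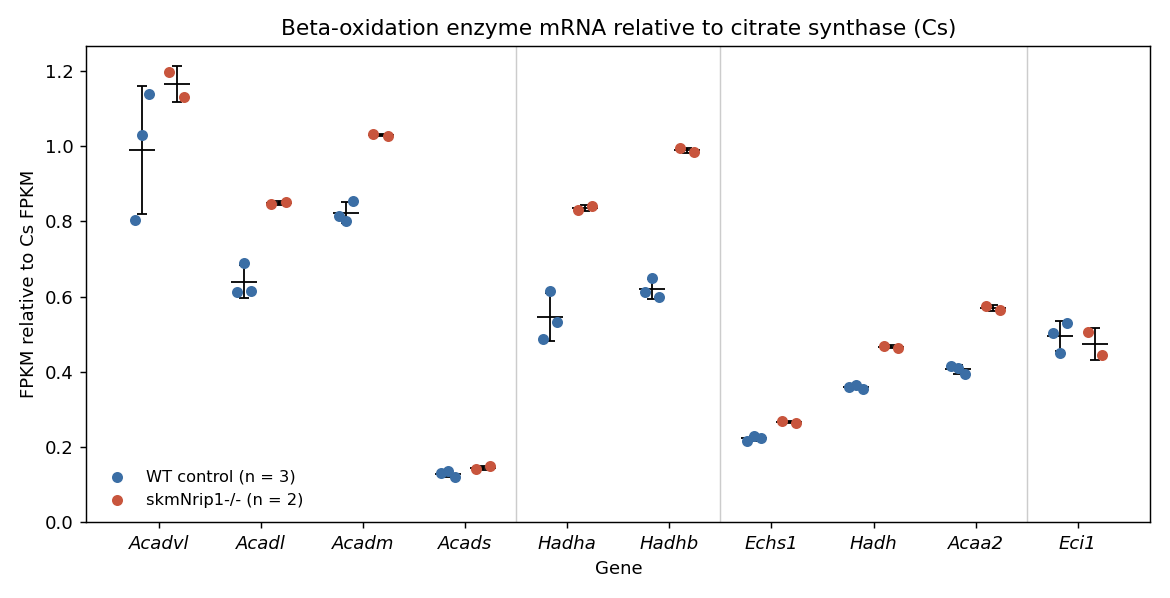
FPKM of each member divided by the FPKM of Cs in the same library; points are libraries, horizontal lines group means and bars SD, for WT control (n = 3) and the libraries labelled skmNrip1-/- (n = 2). The groups are apart for 8 members, widest for Hadhb, and overlap for Acadvl and Eci1.

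The scaling between libraries bears on the fold changes of single genes and lists, and not on ratios or shares taken inside a library. Transcripts of the mitochondrial genome made up 45.4% to 50.7% of the summed FPKM in WT control and 58.6% and 60.9% in skmNrip1-/- libraries. Rescaling every library to a common sum (TPM) lowered the median over the 12148 genes to -0.29 on the log2 scale, and that of the members to 0.33, which is 0.62 above all genes and beside 0.63 without rescaling. Under TPM 9 of the 10 members stayed above 0, and the reference median turned to -0.09, which is 0.20 above all genes. The libraries of both groups overlapped under TPM for Acadvl, Acads and Eci1, which were apart in FPKM. Scaling to a common sum over genes outside the mitochondrial genome gave 0.70 for the members, with all genes at 0.07. Rescaling by the median of ratios between libraries left the members' median at 0.63, so the FPKM were already close to that scaling.

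The rest of the pathway was described from lists of 31 genes. Of these, 1 was called higher (0.370% of all tested genes were) and 0 lower, 0 had an unadjusted p of 0.05 or less and a lower level, 16 had a p of 0.05 or less and a higher level before adjustment (6.57% of all), and 22 had both libraries labelled skmNrip1-/- above WT control (15.8% of all). Their median log2 fold change was 0.31, with 28 of 31 above 0, and it was 0.013 after rescaling to TPM, with 19 of 31 above 0 (0.304 more than the all-gene median). The called gene was Etfa, the alpha subunit of the flavoprotein that takes electrons from the acyl-CoA dehydrogenases, at 208, 227 and 207 FPKM in WT control and 372 and 358 FPKM in skmNrip1-/- libraries. Etfa rose by 0.77 on the log2 scale (SE 0.10, adjusted p = 0.0480 from limma), close to the threshold. No gene of these lists was called without WT control replicate 1, without WT control replicate 3, without either library labelled skmNrip1-/-, or after rescaling to TPM.

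Across the steps around the spiral the values varied. The 3 electron acceptors had a median of 0.77, from 0.36 for Etfb, the partner of Etfa, to 0.83 for Etfdh, which passes the electrons on to ubiquinone. Carnitine-dependent entry (6 genes) had a median of 0.49 with 0 called by limma and 3 at an unadjusted p of 0.05 or less. It ran from 0.24 for Cpt1a, the liver type of carnitine palmitoyltransferase at the outer membrane, to 0.88 for Slc25a20, the carnitine-acylcarnitine carrier of the inner membrane. Slc25a20 was at 50.2, 64.0 and 50.9 FPKM in WT control and at 105 and 97.2 FPKM in skmNrip1-/- libraries, apart but not called (adjusted p = 0.0793).

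The auxiliary and end steps (8 genes) had a median of 0.41, from 0.04 for Hsd17b10, a dehydrogenase of branched-chain breakdown, to 0.70 for Decr1, the dienoyl-CoA reductase for polyunsaturated chains. The isomerase paralog Eci2, also on this list, was at 0.48 beside 0.22 for Eci1. The other acyl-CoA dehydrogenases (8 genes, several of them for amino acid breakdown) had a median of 0.20, from -0.20 for Acad10 to 0.52 for Acad9, a paralog of Acadvl that also assembles complex I. The 6 peroxisomal counterparts, which shorten very long chains outside mitochondria, also had a median of 0.20, from -0.10 for Acaa1b to 0.41 for Hsd17b4. In each of these lists limma called 0 genes, while an unadjusted p of 0.05 or less was found for 5 auxiliary genes, 3 other dehydrogenases and 2 peroxisomal genes.

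**Figure D4:**
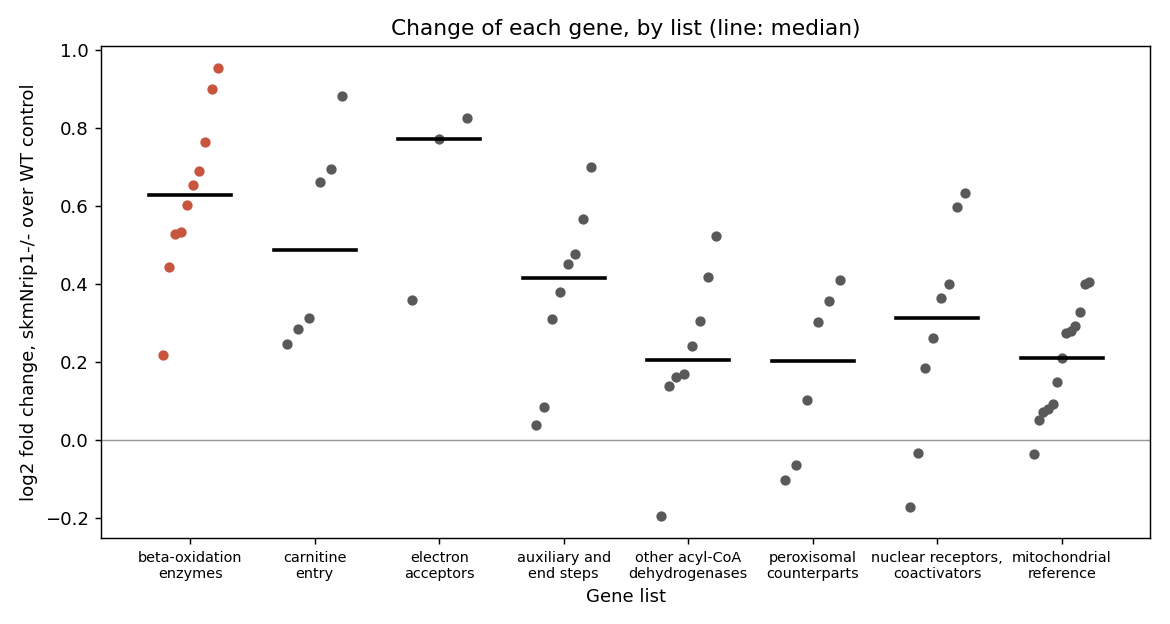
log2 fold change of each gene by list, libraries labelled skmNrip1-/- over WT control; points are genes and black lines list medians. The medians are 0.63 for the members, 0.49 for carnitine entry, 0.77 for the electron acceptors, 0.41 for auxiliary and end steps, 0.20 for both the other acyl-CoA dehydrogenases and the peroxisomal counterparts, 0.31 for nuclear receptors and coactivators, and 0.21 for the mitochondrial reference.

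Nuclear receptors and coactivators known to act on these genes (8) had a median of 0.31, with 0 called by limma and 2 at an unadjusted p of 0.05 or less. They ran from -0.17 for Pparg to 0.63 for Esrrb, which was low throughout at 1.14, 2.32 and 2.07 FPKM in WT control and 2.83 and 2.75 FPKM in skmNrip1-/- libraries (adjusted p = 0.475).

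Genes outside the list with profiles most like the members were found by the root mean square (RMS) difference from the members' median profile, on the log2 scale and over the 5 libraries. The nearest 5 were Jak1, a cytokine receptor kinase (RMS 0.0416), Lclat1, a lysocardiolipin acyltransferase (0.0434), Nampt, an enzyme of NAD synthesis (0.0474), Atp5a1, a subunit of ATP synthase (0.0504), and Ephx2, a soluble epoxide hydrolase (0.0555). Jak1, for example, was at 27.9, 34.5 and 30.8 FPKM in WT control and 51.1 and 46.9 FPKM in skmNrip1-/- libraries. Their adjusted p-values from limma ran from 0.116 to 0.182. By the same measure the members themselves spread from 0.0215 for Hadh to 0.231 for Eci1, with Hadha at 0.159 and Hadhb at 0.161.

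Markers of fiber type and of other cells were read beside these values. In bulk tissue, fewer cells of a type and less RNA per cell cannot be told apart. Fast-fiber markers (8 of 8 tested) all had log2 fold changes below 0, from -0.77 for Actn3 to -0.17 for Tnnt3 with a median of -0.22. Their summed FPKM was 77270 to 110100 in WT control and 72130 and 74890 in skmNrip1-/- libraries. Slow-fiber markers went apart: Myl2 was at 2.03, 1.85 and 9.68 FPKM against 42.1 and 33.6 FPKM (log2 fold change 3.46), and Myl3 at 89.6, 124 and 285 FPKM against 54.1 and 71.3 FPKM (-1.24), with the list median at 0.11 and summed FPKM of 129 to 339 against 149 and 166. Limma called 0 of these fiber genes, and 1 slow-fiber gene was higher and 1 slow- and 1 fast-fiber gene lower at an unadjusted p of 0.05 or less.

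Erythroid markers were above 0 in 5 of 5, with 4 of 5 above every WT control library, from 0.37 for Alas2 to 0.55 for Hbb-bt, and summed FPKM of 511 to 764 in WT control and 996 and 827 in skmNrip1-/- libraries. Adipocyte markers (5 tested of 8) ran from -0.36 for Plin1 to 0.15 for Cfd, with Adipoq at 0.626 to 1.35 FPKM in all libraries and summed FPKM of 134 to 202 against 158 and 163. Endothelial markers (6) ran from -0.30 for Vwf to 0.07 for Kdr, with sums of 80.7 to 87.8 against 73.4 and 82.1 FPKM. Macrophage markers (5 tested of 6) ran from -0.33 for C1qa to 0.39 for Mrc1, with sums of 9.60 to 20.8 against 15.7 and 12.7 FPKM. The 3 Schwann cell markers read here were all below 0, from -0.30 to -0.05 with Mbp the nearest to 0, with the groups overlapping for each and sums of 25.6 to 37.9 against 32.9 and 22.7 FPKM. Fibroblast markers (4) ran from -0.01 for Pdgfra to 0.18 for Col1a1, with sums of 153 to 221 against 181 and 242 FPKM. Limma called 0 of these cell markers, and 3 erythroid genes and no others had an unadjusted p of 0.05 or less. The part of these markers and of the mitochondrial genome transcripts in the members' differences was not tested.

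Reads shared with other genes could enter some values. Acadl overlaps the processed pseudogene Gm15793 on the same strand over 495 bases, and Acadvl overlaps Dvl2 on the opposite strand over 2119 bases, with Dvl2 at 2.36 to 3.35 FPKM. Echs1 overlaps Paox on the opposite strand over 678 bases, with Paox at 1.01 to 1.84 FPKM. These lengths count whole gene spans with introns, so the stretch of transcript that reads could share was not measured. The library kit is not stated to mark strand, so reads from such pairs cannot be told apart by strand, and these values carry that uncertainty.

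Counting error was small beside the differences between group means. Genes with 1 annotated transcript have low FPKM values that lie a fixed step apart, the value of 1 fragment. The inverse of that step, relative to WT control replicate 1, was 1.1 and 1.01 for WT control replicates 2 and 3. For the libraries labelled skmNrip1-/- it was 0.818 and 0.967. This inverse follows the scaling of the FPKM and need not equal sequencing depth, because the summed FPKM also differed between libraries. From these steps the members were estimated to hold about 2800 fragments or more per library, the least for Acads and the most for Hadha at about 51000. That gives a counting error of 1.9% at the least deeply covered value, well under the SD between WT control libraries. For Eci1 the nearest libraries of the groups differed by 1.002 times, which lies inside its counting error of 1.3%.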

How the data were processed

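The authors quantified the paired-end reads with Salmon 1.10.2 on mm10, brought them to gene level with tximport, and deposited FPKM for each gene and library in 1 table; how the FPKM were scaled is not given in the sources used here. Its 2 columns from the authors' DESeq2 1.44.0 comparison, which hold log2 fold changes and adjusted p-values, were not used. Columns were matched to samples by the labels. FPKM are not counts, so no count model was run. All 5 libraries entered 1 fit of limma (version 3.58.1, R 4.3.3; lmFit and eBayes with trend) on log2(FPKM + 0.1), over the 12148 genes whose mean FPKM reached 0.5, with no covariate. Fold changes are on that scale and understate the change of low genes. The script was tested on simulated data.

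The 10 members and the 15 lists of other genes were chosen with earlier results of these data known, so lists are described by counts and medians without a test. The values of 1 Schwann cell marker are not reported here. Genes named are Nrip1, the members, the genes with the largest and smallest change in each list, every called gene, and the 5 most alike in profile; Cs, Myh4, Adipoq, Eci2, Dvl2, Paox and the overlapping pseudogene were named for context beyond this rule. Ratios were compared with exact permutation tests in scipy 1.17.1. Positions are from GENCODE M21 (17008 of 17015 gene IDs matched), and fragments were estimated from transcript length minus 200 bases. P-values measure the spread between these libraries. The alternatives changed the pseudocount (1, 0.01), the minimum mean (none, 1 FPKM) or the scaling (3 others); further ones were eBayes without trend or robust, other call thresholds, a replicate block and leaving out each library. Tables and plots were made with pandas 2.3.3, matplotlib 3.10.9 and numpy 2.4.6 (Python 3.11.15).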

Additional observations from a re-analysis of the deposited data

How the results depend on the processing

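The number of members called higher was 1 as reported. It was 2 with a pseudocount of 1 or a minimum mean of 1 FPKM, and 0 after rescaling to TPM, with eBayes without trend, with calls made at an adjusted p of at most 0.01, and with the replicate number as a block. Leaving out each library gave 0 to 2 calls. The count of other pathway genes called was 0 with a pseudocount of 0.01, without a minimum, under TPM, under the common sum outside the mitochondrial genome, with eBayes without trend or robust, with calls made at an adjusted p of at most 0.01 and with the replicate block, and 0 to 1 on leaving out each library. The members' median was 0.33 under TPM. The long-chain minus medium- and short-chain difference ran from 0.15 to 0.28 on leaving out each library. The reference median was -0.0901 under TPM, 0.285 under the common sum outside the mitochondrial genome, and 0.15 to 0.27 on leaving out each library. Eci1 was at -0.0811 under TPM. Rescaling by the median of ratios was nearly a repeat of the main fit, with Hadhb at an adjusted p of 0.03785 beside 0.03782 from limma. The Hadhb to Hadha difference was -0.00314 without WT control replicate 2 and ran to 0.12 without WT control replicate 1. Hadhb, the called member, lost its call in 7 of the 15 alternative fits, and also in the main fit at an adjusted p of at most 0.01.

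The groups share replicate numbers 1 and 2, but same-numbered libraries are separate samples, and their deviations had a correlation of 0.0892 across 12148 genes, so the numbers were not taken to pair them. With the replicate block Hadhb had a log2 fold change of 0.92 and an adjusted p of 0.235; WT control replicate 3 has no partner there and does not enter the estimate. With 2 libraries in a group, leaving out either leaves a single library that is assumed to vary like the WT control libraries.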
